A study of Rattus norvegicus with 14 samples.

Results

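The comparison described here set neonatal rat heart muscle cells after 48 h of phenylephrine (PE) against unstimulated cells, in both cases in the presence of the vehicle DMSO. It rests on 6 of the 14 arrays of the series, 3 labelled as DMSO with PE for 48 h and 3 labelled as DMSO for 90 min without PE, and on all 13184 genes of the table, each represented by its brightest probe set. The cells were ventricular myocytes from 2-day-old Sprague-Dawley rat pups, depleted of non-myocytes by pre-plating and kept in serum-free medium. PE was used at 100 µM. Per the treatment protocol in the labels the vehicle preceded PE by 6 h, but the design text has PE added first; which is right is unknown. The groups differ in PE, in the time spent in culture and in the time spent in DMSO, and these cannot be told apart. A further group of 2 arrays, DMSO with PE for 6 h, was used to ask whether a gene stood at another level at 48 h than at 6 h of PE. The remaining 6 arrays carry JQ1, an inhibitor of BET bromodomain proteins, and were not compared here. They served to estimate the spread between arrays, to pick each gene's brightest probe set and to set the intensity limit for dim genes. Nothing in the labels ties the arrays of a group to different cell preparations, and the p-values therefore reflect variation among arrays that could be purely technical.

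PE activates alpha1-adrenergic receptors, which couple through Gq to phospholipase C, protein kinase C, calcium and MAP kinases. In cultured neonatal myocytes it is a standard stimulus for hypertrophy, in which cells enlarge, add sarcomeres and re-express genes of the fetal heart. Neonatal rat ventricular myocytes are taken at an age when the cells are leaving the cell cycle and the heart is turning from glucose and lactate to fatty acids as fuel.

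Arrays of one group were close to each other and the groups were well apart. Across genes, Pearson's r ran from 0.9986 to 0.9988 among the 3 PE 48 h arrays and from 0.9986 to 0.9989 among the 3 DMSO 90 min arrays, against 0.9900 to 0.9910 between the groups, and the first principal component of the 6 arrays held 83.2% of the variance. The difference between the 3' and 5' control probe sets, a sign of RNA quality, overlapped between the groups (for Gapdh, -0.10 to -0.03 on the PE 48 h arrays and -0.07 to -0.04 on the DMSO 90 min arrays, in log2 units). Arrays are numbered here by the replicate in their titles.

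After 48 h of PE, 2824 genes (21.4% of those tested) were raised and 2985 (22.6%) were lowered at an adjusted p under 0.05. Most differences were small. The median log2 fold change over all genes was 0.0059 and the 5th and 95th percentiles were -0.46 and 0.51. A gene is called dim in a group whose mean lay below log2 6.23, and the fold change of a gene dim in one group depends on a level that may be mostly background. A rise of at least 2-fold was found for 185 genes (1.40%) and a fall of that size for 88 genes (0.667%). The 3 arrays of one group lay wholly above or below the 3 of the other for 7114 genes (54.0%). All levels below are log2 expression values, differences are log2 fold changes, PE 48 h minus DMSO 90 min, and errors after ± are standard errors (SE) of the fit. Of the genes named below as changed, Esm1, Mmp3, Hsf2bp, RGD1559545, Bdkrb2, Olr1, Fcer2, Nptx1, E2f8 and Il12a were dim in DMSO and Kcnip2 and Flrt3 were dim with PE for 48 h. The percentages above are the background against which the counts for gene groups below are to be read.

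**Figure D1:**
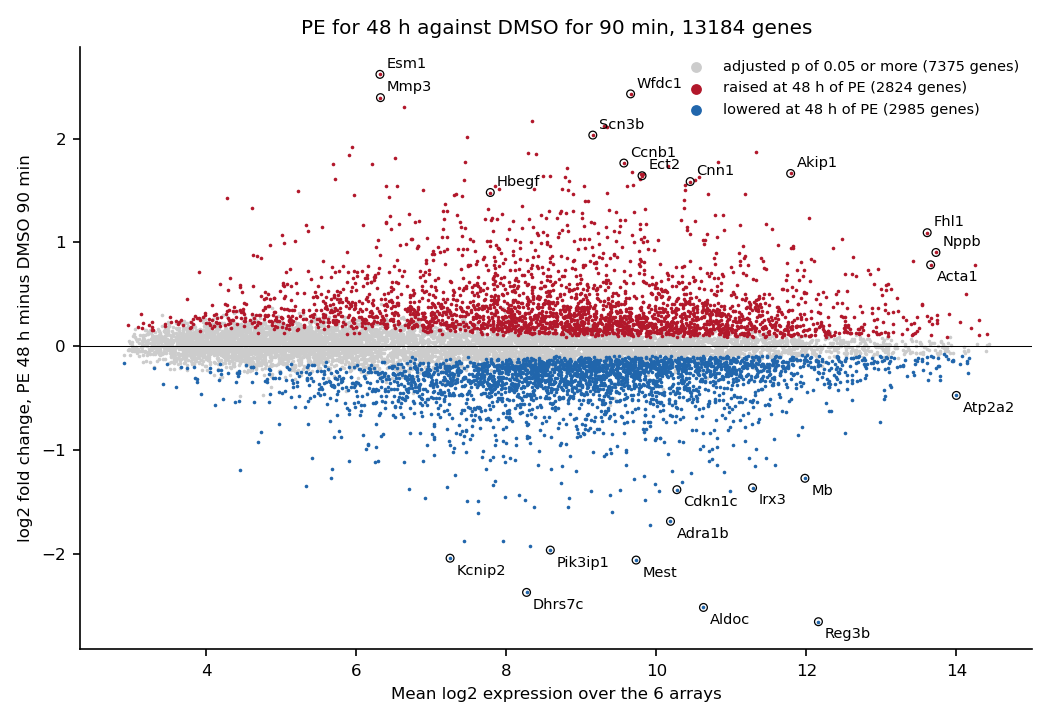
Each point is 1 of 13184 genes, placed by its mean log2 expression over the 6 arrays (x axis) and its log2 fold change, PE 48 h minus DMSO 90 min (y axis), with 2824 raised genes in red and 2985 lowered genes in blue. Esm1 and Wfdc1 lie highest, Reg3b and Aldoc lowest, and most called genes lie within 0.5 of 0.

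Genes of mitosis and cytokinesis rose without exception. All 51 measured members of that list (of 59 written) were raised, 37 of them at least 2-fold, and the list's median log2 fold change was 1.18 against 0.0059 for all genes. Ect2, the exchange factor that activates RhoA for the cleavage furrow, stood at 10.59, 10.69 and 10.61 on the PE 48 h arrays and at 9.05, 9.02 and 8.89 on the DMSO 90 min arrays (log2 fold change 1.64 ± 0.055, adjusted p = 4.42e-10). Ccnb1, the cyclin that activates CDK1 at entry into mitosis, stood at 10.43, 10.49 and 10.43 with PE and at 8.75, 8.67 and 8.65 in DMSO (log2 fold change 1.76 ± 0.059, adjusted p = 4.42e-10). A second probe set of Ccnb1 gave 1.14 ± 0.046. For both genes every PE 48 h array lay above every DMSO 90 min array by more than 1 log2 unit. Prc1, which bundles the microtubules of the spindle midzone, rose 2.83-fold, Kif20a, a kinesin needed for cytokinesis, 2.78-fold, Racgap1, a subunit of the centralspindlin complex of the midzone, 2.32-fold, and Cdca8, the borealin subunit of the chromosomal passenger complex, 2.46-fold. Ube2t, a ubiquitin-conjugating enzyme of the Fanconi anaemia pathway, was among the 25 most raised genes of the whole table (log2 fold change 1.86 ± 0.064). In bulk RNA, a change in the share of a cell type and a change in RNA per cell cannot be told apart, here or for any group below.

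At 6 h of PE these genes stood near the DMSO level. The members' differences between PE 6 h and DMSO 90 min ran from -0.41 to 0.29 with a median of -0.12. All 51 stood higher at 48 h than at 6 h of PE in the test of that difference, in which 16.3% of all genes were higher and 18.4% were lower. Kif20a averaged 8.61 in DMSO at 90 min, 8.39 at 6 h of PE and 10.08 at 48 h of PE. The level at 48 h thus lay above both earlier groups.

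Genes of DNA replication rose as well. Of 33 measured members, 30 were raised and 1 was lowered, with a median of 0.43, and 32 of the 33 were higher at 48 h than at 6 h of PE. Mcm6, a subunit of the replicative helicase, stood at 9.90, 9.90 and 9.85 with PE for 48 h and at 9.28, 9.28 and 9.22 in DMSO (log2 fold change 0.62 ± 0.033). Pole2, a subunit of DNA polymerase epsilon, rose by 1.05 ± 0.067, Cdt1, which loads the helicase, by 0.81 ± 0.055, Rrm1, the large subunit of ribonucleotide reductase, by 0.57 ± 0.039 and Fen1, the flap endonuclease, by 0.87 ± 0.061. The exception was Pola2, the B subunit of DNA polymerase alpha, which fell by 0.21. Among 29 cyclins of G1, E2F factors and inhibitors of cyclin-dependent kinases, 18 were raised and 8 were lowered. E2f8 (log2 fold change 1.18 ± 0.069), E2f5 (0.86 ± 0.040), E2f1 (0.63 ± 0.043) and Ccne1 (0.56 ± 0.037), all of the G1 to S transition, were raised, as was the INK4 inhibitor Cdkn2d (0.89 ± 0.064). Cdkn1c, which encodes the inhibitor p57, was the furthest down, at 9.59, 9.53 and 9.63 with PE for 48 h and 10.93, 10.99 and 10.98 in DMSO (log2 fold change -1.38 ± 0.042, adjusted p = 2.46e-10), followed by the atypical cyclin Ccng2 (-0.69 ± 0.048).

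The promoters of these cell-cycle genes are shown because their members moved together. In dividing cells the CHR element (TTTGAA) and CCAAT boxes mark genes that peak in G2 and mitosis, and E2F sites mark genes that peak at G1 to S. The RefSeq promoter table (build GRCr8) covers 250 bases before to 50 bases after each gene's start. It held 45 of the 59 mitosis genes and 30 of the 37 replication genes. On either strand, TTTGAA was present in 66.7% of the mitosis promoters (30 of 45) and in 3 of 30 replication promoters, against 12.1% of the 10893 promoters of genes tested here and 18.1% of all 27457 promoters of this length. CCAAT was present in 34 of 45 mitosis promoters (75.6%) and 18 of 30 replication promoters, against 37.4% and 37.7%. TTTCGCGC or TTTGGCGC, an E2F site, was present in 4.44% of the mitosis promoters (2 of 45), 43.3% of the replication promoters (13 of 30), 1.35% of the promoters of tested genes and 0.841% of all promoters. The E box CACGTG was found in 2.22% of the mitosis promoters (1 of 45) and in 8.99% of those of tested genes. A match says only that the letters are there. The 150 bases before the start are printed for the 3 mitosis genes and the 3 replication genes with the largest log2 fold change among those with the elements wholly inside that stretch. In the first 3 capitals mark CCAAT and TTTGAA or their reverse complements. In the next 3 capitals mark the E2F sites, which in each of them overlap on the opposite strands.
Spag5 (chr10:63696686-63696835, + strand): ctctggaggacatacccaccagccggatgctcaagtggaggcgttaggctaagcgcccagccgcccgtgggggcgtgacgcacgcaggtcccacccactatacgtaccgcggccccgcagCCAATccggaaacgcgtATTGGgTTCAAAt
Top2a (chr10:84473094-84473243, - strand): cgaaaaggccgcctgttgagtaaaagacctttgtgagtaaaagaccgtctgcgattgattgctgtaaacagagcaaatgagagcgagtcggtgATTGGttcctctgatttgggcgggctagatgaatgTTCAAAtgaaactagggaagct
Prc1 (chr1:143659331-143659480, + strand): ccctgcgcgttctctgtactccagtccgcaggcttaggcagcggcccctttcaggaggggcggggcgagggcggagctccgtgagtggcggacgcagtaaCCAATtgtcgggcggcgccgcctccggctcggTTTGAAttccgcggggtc
Mcm6 (chr13:42404353-42404502, - strand): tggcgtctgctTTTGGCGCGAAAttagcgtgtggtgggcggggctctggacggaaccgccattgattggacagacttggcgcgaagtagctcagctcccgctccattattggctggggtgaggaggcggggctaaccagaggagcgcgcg
Gins1 (chr3:160184770-160184919, + strand): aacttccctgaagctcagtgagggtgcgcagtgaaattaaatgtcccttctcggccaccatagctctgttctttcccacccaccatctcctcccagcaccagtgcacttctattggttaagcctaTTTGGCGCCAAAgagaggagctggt
Mcm2 (chr4:122918095-122918244, - strand): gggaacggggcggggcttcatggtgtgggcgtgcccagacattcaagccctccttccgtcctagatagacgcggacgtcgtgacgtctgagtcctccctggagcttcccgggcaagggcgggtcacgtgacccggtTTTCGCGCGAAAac
In Prc1 the CCAAT box begins 50 bases and the TTTGAA element 18 bases before the start, and in Top2a, the topoisomerase that untangles chromosomes, 57 and 22 bases before it. Of the 513 tested genes outside both cell-cycle lists whose promoter held TTTGAA and CCAAT, 25.1% were raised and 21.2% were lowered, and of the 132 with an E2F site 29 were raised and 30 were lowered, against 21.0% raised and 23.0% lowered among the 10818 tested genes with a promoter outside those lists.

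**Figure D2:**
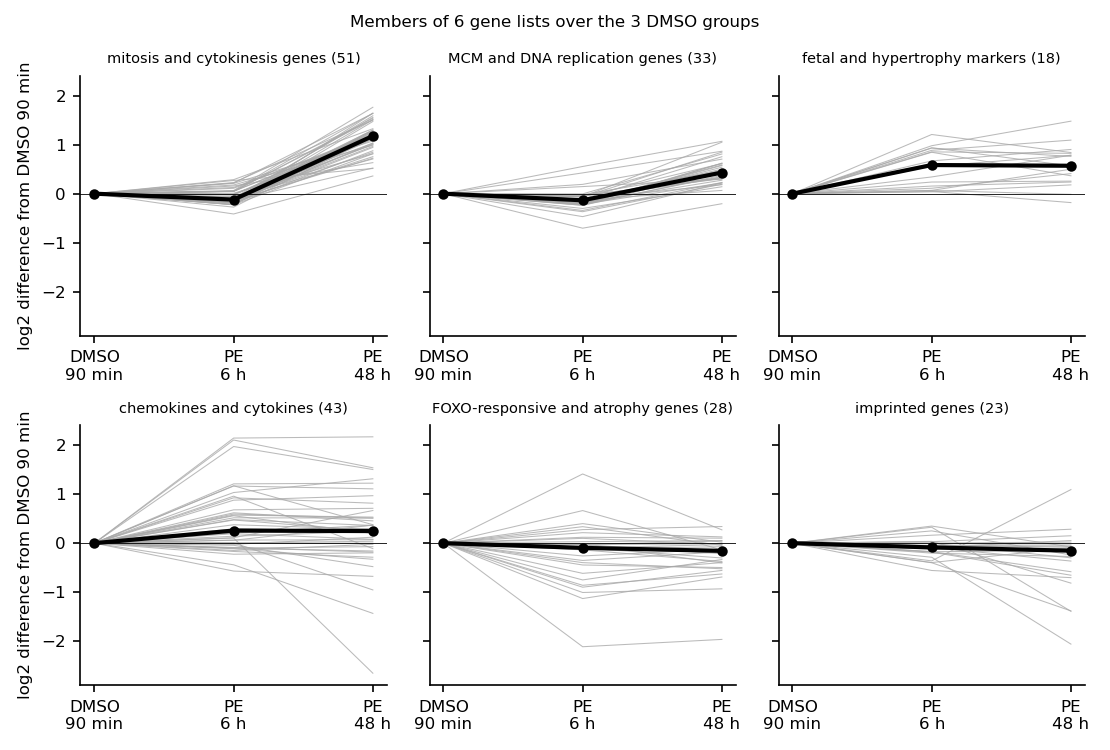
Grey lines follow the members of 6 gene lists (number measured in the panel titles) over DMSO 90 min (3 arrays), PE 6 h (2 arrays) and PE 48 h (3 arrays), as log2 differences between the group mean and the DMSO 90 min mean, and the black line is the list median. The mitosis median stands at -0.12 at 6 h and at 1.18 at 48 h, whereas the median of fetal and hypertrophy markers stands at 0.58 at 6 h and 0.57 at 48 h.

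Of the markers of fetal gene expression and hypertrophy, 16 of 18 measured were raised and none was lowered, with a median of 0.57. Nppa, which encodes atrial natriuretic peptide, stood at 14.65, 14.63 and 14.62 with PE for 48 h and at 13.83, 13.90 and 13.82 in DMSO, a 1.72-fold difference (adjusted p = 2.47e-09). Nppb, its ventricular relative, stood at 14.18, 14.14 and 14.21 with PE and at 13.27, 13.30 and 13.26 in DMSO, a 1.87-fold difference. Acta1, the skeletal muscle alpha-actin of the fetal heart, stood at 14.04, 14.06 and 14.04 with PE and at 13.25, 13.27 and 13.27 in DMSO, a 1.72-fold difference. In all 3 the arrays of the groups did not overlap. These levels lie near the top of the table's range, whose highest value is 14.70, and whether that range narrowed the folds was not tested. Fhl1, a LIM protein that binds titin, is as high in the range and rose by 1.09 ± 0.034 on its brightest probe set, but by 2.19 ± 0.13 on a second one (means 11.63 with PE and 9.44 in DMSO). A larger fold than those of the peptides was also found for Hbegf, the EGF receptor ligand that is shed after Gq activation (2.79-fold). Rcan1, a calcineurin target and inhibitor, rose 1.48-fold, Ankrd1, a stretch-sensing titin partner, 1.19-fold, Ccn1 1.49-fold and Ccn2, a matricellular growth factor, 1.18-fold.

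The median of these markers against DMSO was 0.58 at 6 h and 0.57 at 48 h. Between 6 h and 48 h of PE, 7 of the 18 were higher and 4 were lower at 48 h. Nppa averaged 13.85 in DMSO at 90 min, 14.19 at 6 h of PE and 14.63 at 48 h of PE. Hbegf averaged 7.05 in DMSO at 90 min, 8.03 at 6 h of PE and 8.53 at 48 h of PE, so both were still higher at 48 h (adjusted p = 1.83e-06 for Nppa and 6.67e-06 for Hbegf). Rcan1 averaged 11.53 in DMSO at 90 min, 12.46 at 6 h of PE and 12.09 at 48 h of PE and was lower at 48 h than at 6 h (adjusted p = 2.95e-04). A promoter match to the CArG box, the site of serum response factor, was found in only 2 of 16 marker promoters (12.5%) and in 1.32% of the promoters of tested genes. It was found in 2 of 19 promoters of the serum response factor and smooth muscle genes described below. Of the 142 tested genes with it outside both cell-cycle lists, 23.9% were raised and 19.7% were lowered. The shares among the 10818 with any promoter were 21.0% and 23.0%. In Fhl1, whose 150 bases before the start are printed with that match in capitals, it begins 102 bases before the start.
Fhl1 (chrX:139638346-139638495, + strand): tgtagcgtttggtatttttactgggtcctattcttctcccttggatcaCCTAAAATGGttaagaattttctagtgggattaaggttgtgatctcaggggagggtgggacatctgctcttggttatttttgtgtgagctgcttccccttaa

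**Figure D3:**
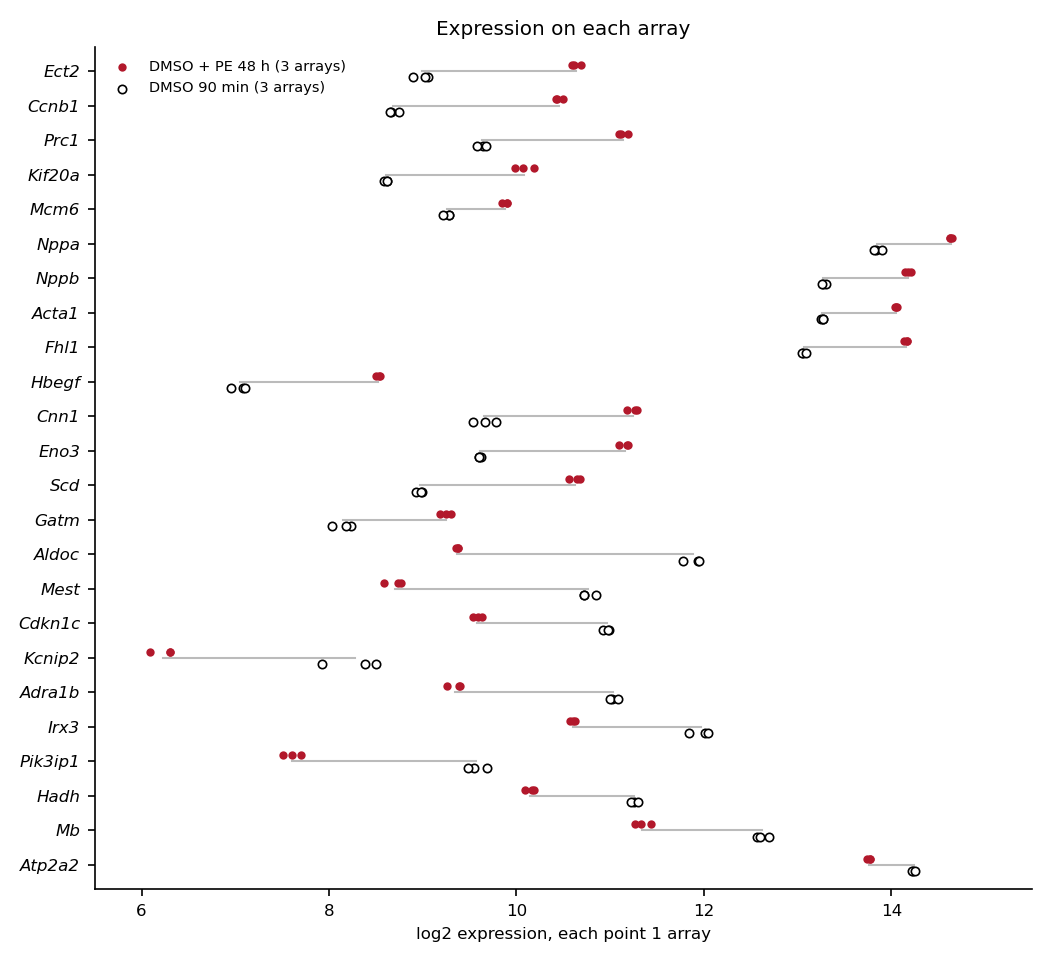
Log2 expression of 24 genes (x axis) on each of the 3 PE 48 h arrays (filled red) and the 3 DMSO 90 min arrays (open), with a grey line joining the group means. For every gene drawn the 3 + 3 arrays do not overlap; the first 14 rows from the top lie higher with PE for 48 h, and the other 10 lie lower.

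Structural genes of the muscle cell rose at the Z-disc and in the cytoskeleton and split within the filaments. At the Z-disc and M-band, 16 of 22 measured genes were raised and 3 were lowered (median 0.39). Tcap, the titin cap, rose 2.17-fold, Csrp3, the muscle LIM protein, 1.77-fold, Pdlim3 1.67-fold and the intermediate filament gene Des 1.62-fold. The muscle ubiquitin ligases Trim63 and Trim54 fell, by 0.52 and 0.56 on the log2 scale. Among 20 genes of the thick and thin filaments 7 were raised (4 after repeated quantile normalization) and 4 were lowered, with a median of 0.019. Myh7, the slow beta-myosin heavy chain, rose by 0.50 ± 0.040 on its brightest probe set, which is near the top of the table's range, and by 1.14 ± 0.13 on a second one (means 9.12 with PE and 7.98 in DMSO). Myh6, the fast alpha chain, fell by 0.25 on its brightest probe set and by 1.05 on a second one (means 8.85 with PE and 9.90 in DMSO). Lmod2, which elongates thin filaments, rose 1.67-fold, while Tnni1, the slow skeletal troponin I of the fetal heart, was 1.42-fold lower. Of 21 tubulin and intermediate filament genes, 14 were raised and 1 was lowered (2 without PE 48 h array 1 or DMSO array 3; median 0.36). Synm, the intermediate filament protein synemin, stood at 11.11, 10.98 and 10.99 with PE for 48 h and at 9.23, 9.30 and 9.34 in DMSO, a 3.33-fold rise, Tuba4a rose 1.82-fold and Vim was 1.20-fold lower. Enah, an actin-elongating protein, rose 3.43-fold and one of its other probe sets gave a log2 fold change of 1.56.

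Adhesion and smooth-muscle-type contractile genes rose beside them. Of 27 integrin and focal adhesion genes, 18 were raised and 2 were lowered (median 0.30). Itga9 rose 1.93-fold, the muscle protein melusin (Itgb1bp2), which binds the beta1 tail, 1.80-fold, the integrin-linked kinase gene Ilk 1.42-fold, and Itga7, the laminin receptor of muscle, 1.28-fold. Of 23 genes of serum response factor and smooth muscle contraction, 13 were raised and 4 were lowered. Cnn1, calponin, stood at 11.29, 11.27 and 11.18 with PE and at 9.53, 9.78 and 9.66 in DMSO (log2 fold change 1.59 ± 0.058). Pdlim7 rose 2.21-fold on its brightest probe set while a second, not dim, gave 0.041 and did not pass the test. Csrp1 rose 1.79-fold and Actn1 1.62-fold, whereas Smtn was 1.32-fold and Tagln 1.10-fold lower. The number lowered was 1 without DMSO array 3 and 2 without PE 48 h array 1, 2 or 3 or DMSO array 1. Tagln lost its call without PE 48 h array 1 or 2 or DMSO array 3.

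A receptor gene for the stimulus itself was lower. Adra1b, an alpha1-adrenergic receptor gene, stood at 9.39, 9.26 and 9.39 with PE for 48 h and at 11.02, 11.00 and 11.08 in DMSO (log2 fold change -1.69 ± 0.052, adjusted p = 2.52e-10). It averaged 11.03 in DMSO at 90 min, 9.51 at 6 h of PE and 9.35 at 48 h of PE, with a small further fall between 6 h and 48 h (adjusted p = 0.0436). Adra1d fell by 0.59 on the log2 scale, and Adra1a, at 4.37, 4.44 and 4.47 with PE and 4.49, 4.36 and 4.40 in DMSO, was dim in both groups and did not pass the test (adjusted p = 0.959). The angiotensin receptor gene Agtr1a fell by 0.42 and the thrombin receptor gene F2r by 0.20. Bdkrb2, the bradykinin B2 receptor, had the highest fold change of the list. It averaged 4.98 in DMSO at 90 min, 8.44 at 6 h of PE and 6.82 at 48 h of PE, and was lower at 48 h than at 6 h (adjusted p = 1.20e-06). In all, 7 of 25 adrenergic and Gq-coupled signalling genes were raised and 9 were lowered (5 without PE 48 h array 3). Of the kinases, Prkca rose by 0.63 ± 0.055 and Prkce fell by 0.33.

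Immediate early genes were mostly lower at 48 h than at 6 h. Of 25 immediate early and AP-1 genes, 14 were raised and 4 were lowered at 48 h (2 without DMSO array 3), but 19 were lower and 1 was higher at 48 h than at 6 h. Fos averaged 9.05 in DMSO at 90 min, 11.19 at 6 h of PE and 9.91 at 48 h of PE. Egr1 averaged 10.94 in DMSO at 90 min, 11.29 at 6 h of PE and 10.75 at 48 h of PE and so stood below the DMSO level at 48 h (log2 fold change -0.19 ± 0.050, adjusted p = 0.00885). Ptgs2, cyclooxygenase 2, stood at 9.55, 9.34 and 9.28 with PE for 48 h and 8.41, 8.27 and 7.98 in DMSO and did not pass the test between 6 h and 48 h (adjusted p = 0.784). Among 16 MAP kinase feedback genes 9 were raised and 3 were lowered. The phosphatase genes Dusp8 and Dusp6 rose 2.47-fold and 1.81-fold and Dusp5 fell by 0.70 on the log2 scale. Ptprr, a tyrosine phosphatase of ERK, averaged 8.22 in DMSO at 90 min, 5.16 at 6 h of PE and 6.73 at 48 h of PE. It was thus lowered at 48 h, and less so than at 6 h (difference between 48 h and 6 h 1.57 ± 0.078, adjusted p = 2.58e-08).

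Transcription factors of the heart divided as well, 7 of 24 raised (4 without DMSO array 2) and 9 lowered. Irx3, which controls fast conduction in the mouse ventricle, stood at 10.57, 10.60 and 10.63 with PE for 48 h and at 12.01, 12.05 and 11.84 in DMSO (log2 fold change -1.36 ± 0.059). Irx4, the ventricular member of the family, fell by 0.90, Hopx by 0.68, Gata6 by 0.66 and Meis1, which holds back myocyte division in the mouse, by 0.59. Gata4 and Mef2d, both effectors of hypertrophic signalling, rose 1.42-fold and 1.48-fold on their brightest probe sets. For Mef2d a second probe set, not dim, gave 0.010 and did not pass the test. Irx3 did not pass the test between 6 h and 48 h (adjusted p = 0.0999), whereas Gata6 was lower at 48 h (adjusted p = 1.86e-06).

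Genes of repolarisation leaned downwards. Of 22 potassium channel genes, 10 were lowered and 1 was raised (4 raised in the fit of only the 6 arrays). Kcnip2, the subunit that sets the fast transient outward current, stood at 6.30, 6.09 and 6.30 with PE for 48 h and at 8.50, 7.93 and 8.39 in DMSO (log2 fold change -2.04 ± 0.18, adjusted p = 1.57e-06). Kcnd3, a pore subunit of that current, fell by 0.61, and the KATP channel genes Abcc9 and Kcnj11 fell by 1.02 and 0.96. Kcne1 was the riser (0.94 ± 0.15). Of 17 sodium and pacemaker channel and connexin genes 3 were raised and 5 were lowered, but 2 sodium channel subunits moved far and in opposite directions. Scn3b, the beta3 subunit, stood at 10.19, 10.18 and 10.14 with PE and at 8.11, 8.06 and 8.24 in DMSO (log2 fold change 2.03 ± 0.049), and Scn4b, the beta4 subunit, stood at 9.63, 9.63 and 9.56 with PE and at 10.87, 10.84 and 10.73 in DMSO (-1.21 ± 0.057). Gja5, the connexin of atrial and conduction cells, was 3.31-fold lower and Gja1, the main connexin of working myocytes, 1.25-fold lower. For Gja5 a second, dimmer probe set gave -0.32 and did not pass the test.

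Calcium-handling genes gave 6 raised and 10 lowered of 25. Atp2a2, the calcium pump of the sarcoplasmic reticulum, stood at 13.77, 13.74 and 13.77 with PE and at 14.23, 14.22 and 14.25 in DMSO (log2 fold change -0.47 ± 0.033). Those levels are near the top of the table's range, and its other probe sets gave -0.44, -0.59 and -1.04 (means 9.96 with PE and 11.00 in DMSO for the last) past the threshold and 0.14, dim in both groups, short of it. Its regulator Pln, the calcium-binding Hrc and S100a1, and the release channel Ryr2 were lower by 1.22-fold, 1.65-fold, 1.33-fold and 1.25-fold, and the call for Ryr2 was lost when its probe sets were averaged. Jph2, which ties that membrane to the T-tubule, rose 1.60-fold. Dhrs7c, a dehydrogenase of the sarcoplasmic reticulum of muscle, was among the most lowered genes of all, at 7.01, 7.04 and 7.20 with PE and 9.51, 9.32 and 9.54 in DMSO (log2 fold change -2.37 ± 0.12), and Sypl2, a triad membrane protein of skeletal muscle, among the most raised, at 9.33, 9.35 and 9.29 with PE and 7.47, 7.50 and 7.45 in DMSO (1.85 ± 0.060, and 0.96 ± 0.11 on a second probe set). Trdn fell on its brightest probe set (-0.45 ± 0.053) and on a second one (-0.33 ± 0.057). Another was not past the threshold (-0.097), and the faintest, dim in both groups, gave 0.31, past the threshold in the opposite direction.

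Genes of fatty acid oxidation were mostly lowered. Of 29 measured, 18 were lowered and 3 were raised (median -0.17). Hadh, a dehydrogenase of beta-oxidation, stood at 10.16, 10.09 and 10.19 with PE for 48 h and at 11.25, 11.22 and 11.29 in DMSO (log2 fold change -1.11 ± 0.040). Ech1 was 2.01-fold lower, Acaa2 1.65-fold, Eci1 1.57-fold and Cpt1a, the liver form of the gatekeeper of mitochondrial import, 1.84-fold. Between 6 h and 48 h of PE, 12 of the 29 were higher and 5 were lower at 48 h. Of 16 regulators of oxidative metabolism, 8 were lowered and 1 was raised. Ppargc1a, the coactivator PGC-1alpha, stood at 7.78, 8.13 and 7.64 with PE and at 8.80, 9.10 and 9.09 in DMSO (log2 fold change -1.15 ± 0.24, a wide error), Rxrg fell by 1.07 and Klf15 by 0.56. Respiratory chain and ATP synthase genes gave 4 raised (7 with a trend in the prior variance) and 12 lowered of 41 with small differences (median -0.055). There the heart and muscle isoforms Cox8b and Cox7a1 parted, Cox8b falling by 0.73 and Cox7a1 rising by 0.97 ± 0.064. TCA cycle genes gave 7 raised and 6 lowered of 22.

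Lipid synthesis genes leaned upwards. The list of fatty acid synthesis and lipid droplet genes gave 15 raised and 6 lowered of 30, and the list of cholesterol synthesis 16 raised and none lowered of 20 (1 lowered without DMSO array 1). Scd, the stearoyl-CoA desaturase, stood at 10.56, 10.68 and 10.65 with PE and at 8.93, 9.00 and 8.98 in DMSO (log2 fold change 1.66 ± 0.058, adjusted p = 5.56e-10). The desaturases Fads2 and Fads1 rose 1.92-fold and 1.49-fold, the activating enzyme Acsl3 1.76-fold and Fasn, fatty acid synthase, 1.42-fold. Fads1 averaged 10.52 in DMSO at 90 min, 10.03 at 6 h of PE and 11.10 at 48 h of PE, thus below the DMSO level at 6 h and above it at 48 h. G0s2, an inhibitor of fat breakdown, was 2.22-fold lower, Lpl, the lipase that takes fatty acids from lipoproteins, 1.36-fold lower, and Fitm1, which promotes lipid droplets in muscle, 3.02-fold lower. In the sterol branch Idi1 rose 1.45-fold and Fdps 1.38-fold.

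Glycolytic genes changed by isoform, 15 raised and 11 lowered of 34. Aldoc, aldolase C, stood at 9.38, 9.36 and 9.38 with PE for 48 h and at 11.78, 11.93 and 11.95 in DMSO (log2 fold change -2.52 ± 0.051, adjusted p = 1.74e-11). Eno3, the muscle enolase, stood at 11.20, 11.09 and 11.18 with PE and at 9.62, 9.60 and 9.60 in DMSO (1.55 ± 0.047), and Slc16a3, the lactate exporter MCT4, at 10.59, 10.51 and 10.45 with PE and 8.77, 8.85 and 8.90 in DMSO (1.68 ± 0.059). Pfkp, the platelet phosphofructokinase, rose 1.93-fold, and Pdk2, a kinase that switches off pyruvate dehydrogenase, was 1.60-fold lower. Slc2a4, the insulin-regulated glucose transporter, rose 1.30-fold on its brightest probe set, while a second, not dim, gave 0.069 and did not pass the test. Genes known to respond to hypoxia were even, 10 raised and 10 lowered of 34.

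Energy-buffering genes showed opposite changes within one short pathway. Creatine is made in 2 steps, by Gatm and then Gamt. Gatm stood at 9.30, 9.25 and 9.19 with PE and at 8.24, 8.18 and 8.03 in DMSO (log2 fold change 1.09 ± 0.056), whereas Gamt stood at 7.63, 7.31 and 7.84 with PE and at 9.14, 9.09 and 9.20 in DMSO (-1.55 ± 0.097). Ckmt1, the ubiquitous mitochondrial creatine kinase, rose 2.31-fold and Ckm, the muscle form, was 1.46-fold lower. Gatm averaged 8.15 in DMSO at 90 min, 7.79 at 6 h of PE and 9.24 at 48 h of PE, and Ckmt1 averaged 6.24 in DMSO at 90 min, 6.09 at 6 h of PE and 7.45 at 48 h of PE. Mb, myoglobin, stood at 11.33, 11.27 and 11.43 with PE and at 12.57, 12.60 and 12.69 in DMSO (-1.27 ± 0.061), and the AMP deaminase gene Ampd3 was 2.42-fold lower. In all, 5 of 16 genes of this group were raised (3 without PE 48 h array 3) and 6 were lowered.

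Genes that FOXO factors are known to induce in starved or insulin-deprived cells were lowered in 14 of 28 cases and raised in 2. Pik3ip1, an inhibitor of PI3 kinase, stood at 7.70, 7.61 and 7.51 with PE for 48 h and at 9.54, 9.68 and 9.48 in DMSO (log2 fold change -1.96 ± 0.070, adjusted p = 6.98e-10). Sesn1 fell by 0.93, Ccng2 by 0.69, Txnip by 0.63 and the atrophy ligase Trim63 by 0.52. Irs2 was raised by 0.27 ± 0.047, yet it was lower at 48 h than at 6 h (difference -1.14 ± 0.053, adjusted p = 1.31e-08). Pik3ip1 averaged 9.57 in DMSO at 90 min, 7.46 at 6 h of PE and 7.61 at 48 h of PE and did not pass the test between 6 h and 48 h (adjusted p = 0.171).

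Imprinted genes, several of which form a network that is active in the fetus and silenced after birth, were lowered in 10 of 23 cases and raised in 2 (1 without PE 48 h array 2 or DMSO array 1 or 3). Mest, a growth-related gene expressed from the paternal allele, stood at 8.77, 8.59 and 8.74 with PE and at 10.72, 10.72 and 10.85 in DMSO (log2 fold change -2.06 ± 0.063, adjusted p = 2.46e-10). Plagl1, a zinc finger factor of the network, stood at 9.41, 9.31 and 9.32 with PE and at 10.77, 10.78 and 10.66 in DMSO (-1.39 ± 0.065), Cdkn1c fell by 1.38 and H19 by 0.58. Igf2 fell by 0.82 on its brightest probe set, but its 3 dimmer probe sets gave 0.034 to 0.15 without passing the test, and the mean of its probe sets did not pass either. Mest averaged 10.76 in DMSO at 90 min, 10.47 at 6 h of PE and 8.70 at 48 h of PE and Plagl1 averaged 10.73 in DMSO at 90 min, 11.06 at 6 h of PE and 9.34 at 48 h of PE. Both were lower at 48 h than at 6 h (adjusted p = 5.48e-09 for Mest and 7.27e-09 for Plagl1), as were 10 of the 23 genes.

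Secreted factors and matrix genes held many of the largest differences. Esm1, the proteoglycan endocan, stood at 7.97, 7.60 and 7.31 with PE for 48 h and at 5.14, 4.84 and 5.05 in DMSO, where it was dim (log2 fold change 2.62 ± 0.15, adjusted p = 2.53e-08). Wfdc1, a secreted protein with a whey acidic protein domain, stood at 10.89, 10.82 and 10.92 with PE and at 8.47, 8.45 and 8.41 in DMSO (2.43 ± 0.048), and Mmp3, the protease stromelysin 1, at 7.88, 7.39 and 7.29 with PE and 5.19, 5.15 and 5.04 in DMSO, where it was dim (2.39 ± 0.18). All 3 were higher at 48 h than at 6 h, by 1.41 ± 0.16, 1.10 ± 0.054 and 1.36 ± 0.20. At the other end Reg3b, a secreted lectin of inflammation, stood at 10.88, 10.71 and 10.91 with PE and at 13.43, 13.53 and 13.51 in DMSO (-2.65 ± 0.081). It averaged 13.49 in DMSO at 90 min, 13.59 at 6 h of PE and 10.83 at 48 h of PE. Hamp, the iron hormone hepcidin, averaged 8.43 in DMSO at 90 min, 9.57 at 6 h of PE and 6.82 at 48 h of PE, above the DMSO level at 6 h and below it at 48 h.

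Of 34 TGF-beta and BMP genes and antagonists, 17 were raised and 6 were lowered (median 0.17). Grem1, the BMP antagonist gremlin 1, stood at 10.44, 10.39 and 10.28 with PE and at 8.23, 8.35 and 8.16 in DMSO (log2 fold change 2.12 ± 0.071). Of the ligands Tgfb2 rose 1.69-fold and Bmp7 1.74-fold while Bmp4 was 1.41-fold lower. Tgfb1, at 6.32, 6.30 and 6.37 with PE and 6.04, 6.14 and 6.31 in DMSO, did not pass the test (adjusted p = 0.128). It passed as raised without DMSO array 3. Id1, a standard target of BMP signalling, rose 2.03-fold, the activin antagonist Fstl3 rose 1.47-fold, and the receptor gene Tgfbr1 was 1.30-fold lower. In the matrix lists more genes were lowered than raised, but the medians were small (-0.046 for collagens, -0.075 for matricellular genes and -0.0046 for proteases). Among 35 collagens and basement membrane genes 10 were raised and 15 were lowered, among 37 matricellular and crosslinking genes 8 and 14, and among 30 proteases and inhibitors 6 and 11. The 8 became 5 without PE 48 h array 1 or 3 or DMSO array 1 or 3, and the 11 became 7 without DMSO array 3. Col1a1 was 1.33-fold lower, Col14a1 1.54-fold, Postn 1.13-fold and Mmp2 1.24-fold. Risers were Col8a1 (2.12-fold), Tgm2, a crosslinking transglutaminase (2.25-fold), and the protease inhibitor Timp1 (1.74-fold).

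Chemokines and cytokines gave 23 raised and 7 lowered of 43 (median 0.25), and 15 raised with dim genes left out. Ccl27 stood at 9.49, 9.30 and 9.49 with PE for 48 h and at 7.29, 7.42 and 7.05 in DMSO (log2 fold change 2.17 ± 0.093) and did not pass the test between 6 h and 48 h (adjusted p = 0.888). Il12a rose 2.91-fold, Cxcl16 2.49-fold, Il1rl1, the receptor of interleukin 33, 2.16-fold and Ccl7 1.96-fold, while Cxcl12 was 1.60-fold and Cxcl11 2.70-fold lower. Interferon-stimulated and antigen presentation genes gave none raised and 10 lowered of 31 (median -0.21). The arrays of a group differed widely here. The members' summed log2 level was 264.1, 265.1 and 257.8 on PE 48 h arrays 1, 2 and 3. It was 264.8, 271.3 and 274.3 on DMSO arrays 1, 2 and 3, so that DMSO array 1 lay among the PE arrays. The groups did not overlap for 14 of the 31 genes, a lower share than the 54.0% of all genes. The number lowered ran from 8 without PE 48 h array 3 to 13 without DMSO array 1. Among the lowered genes were the invariant chain gene Cd74 (-0.68 ± 0.11), Irf1 (-0.43 ± 0.039) and Stat2 (-0.51 ± 0.072). Complement genes gave 5 raised and 6 lowered of 22, close to the shares of all genes. Masp1, a protease of the lectin pathway, was the furthest down after Hamp (-1.34 ± 0.064, and -0.39 ± 0.088 on a second probe set). The number raised was 3 without DMSO array 1. Of 54 growth factor genes (ligands, receptors and binding proteins, mainly of the EGF, FGF, IGF and VEGF families), 12 were raised and 17 were lowered. Bdnf rose 1.92-fold and Ntf3, its relative among the neurotrophins, was 2.73-fold lower. Of 38 Wnt, Notch and Hippo genes 8 were raised (5 without DMSO array 1 or 3), close to the share of all genes, and 11 were lowered. Among those changed were Dkk3 (1.89-fold lower), the receptor gene Fzd1 (1.55-fold lower), the Notch target Hes1 (1.75-fold lower) and the antagonist Sfrp1 (1.66-fold higher).

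Genes of ribosome biogenesis, aminoacyl-tRNA synthetases and the amino acid response were mostly lower at 48 h than at 6 h. Of 31 ribosome biogenesis and polyamine genes 15 were raised and 2 were lowered against DMSO (0 to 4 lowered with 1 array left out, the 0 without PE 48 h array 2 and the 4 without PE 48 h array 1), and 23 were lower and 1 was higher at 48 h than at 6 h. Rrp12, which exports ribosomal subunits, averaged 8.18 in DMSO at 90 min, 9.57 at 6 h of PE and 9.05 at 48 h of PE. Aminoacyl-tRNA synthetases and amino acid response genes gave 3 raised and 14 lowered of 35, and 25 were lower and none was higher at 48 h than at 6 h. Phgdh and Psat1, the first enzymes of serine synthesis, were 1.59-fold and 1.60-fold lower against DMSO, and Trib3 was 1.64-fold lower. Of 22 genes of the unfolded protein response 12 were lowered and 2 were raised (none without PE 48 h array 1, and 1 without PE 48 h array 3 or DMSO array 1, 2 or 3), with Herpud1 down by 0.64 and the chaperone Hspa5 by 0.25. Of 16 ribosomal protein genes 8 were lowered (5 in the fit of only the 6 arrays), the furthest being Rpl22 (-0.17 ± 0.036), and none was raised. Of the same 16, 7 were lower and 0 were higher at 48 h than at 6 h.

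Heat shock genes were mostly raised, 18 raised and 2 lowered of 24 (median 0.24). Hspa1a, the inducible HSP70, stood at 9.70, 9.53 and 9.56 with PE and at 7.89, 7.95 and 8.08 in DMSO (1.63 ± 0.062). The muscle small heat shock genes Hspb3 and Hspb6 rose 1.96-fold and 1.60-fold, and Hspb3 averaged 11.13 in DMSO at 90 min, 11.18 at 6 h of PE and 12.11 at 48 h of PE. Antioxidant genes of the NRF2 pathway gave 6 raised and 15 lowered of 33. Hmox1, haem oxygenase 1, was 1.99-fold lower, Gsta4 1.98-fold and Mgst1 1.98-fold lower, and Sod3, the extracellular superoxide dismutase, was 1.86-fold higher. Of 28 genes of the BCL2 family and cell death 5 were raised and 7 were lowered, close to the shares of all genes (21.4% raised and 22.6% lowered). Tnfrsf12a, the TWEAK receptor, rose 2.36-fold and Bok, a BCL2 relative, 2.18-fold, and Fas was 1.35-fold lower. Proteasome and autophagy genes gave 6 each way of 33, also close to the shares of all genes. All 6 risers encode proteasome subunits (Psmd14 rose 1.28-fold). The autophagy kinase gene Ulk1 was 1.68-fold lower.

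Further groups gave calls in both directions, in the clock and calcineurin lists at shares close to those of all genes. Of 44 histone and chromatin genes 12 were raised and 18 were lowered, with Ezh2, the methyltransferase of Polycomb, 1.59-fold higher and Mllt3, a reader of the super elongation complex, 2.08-fold lower. Of 18 clock genes 4 were raised and 5 were lowered, Per3 by 0.81 and Nr1d2 by 0.80, while Per2 rose by 0.41 ± 0.049. Of 15 calcineurin and NFAT genes 3 were raised and 4 were lowered. Of 11 genes of natriuretic peptide signalling 3 were raised and 5 were lowered. The receptor gene Npr3 was 1.34-fold and the degrading enzyme gene Mme 1.54-fold lower.

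**Figure D4:**
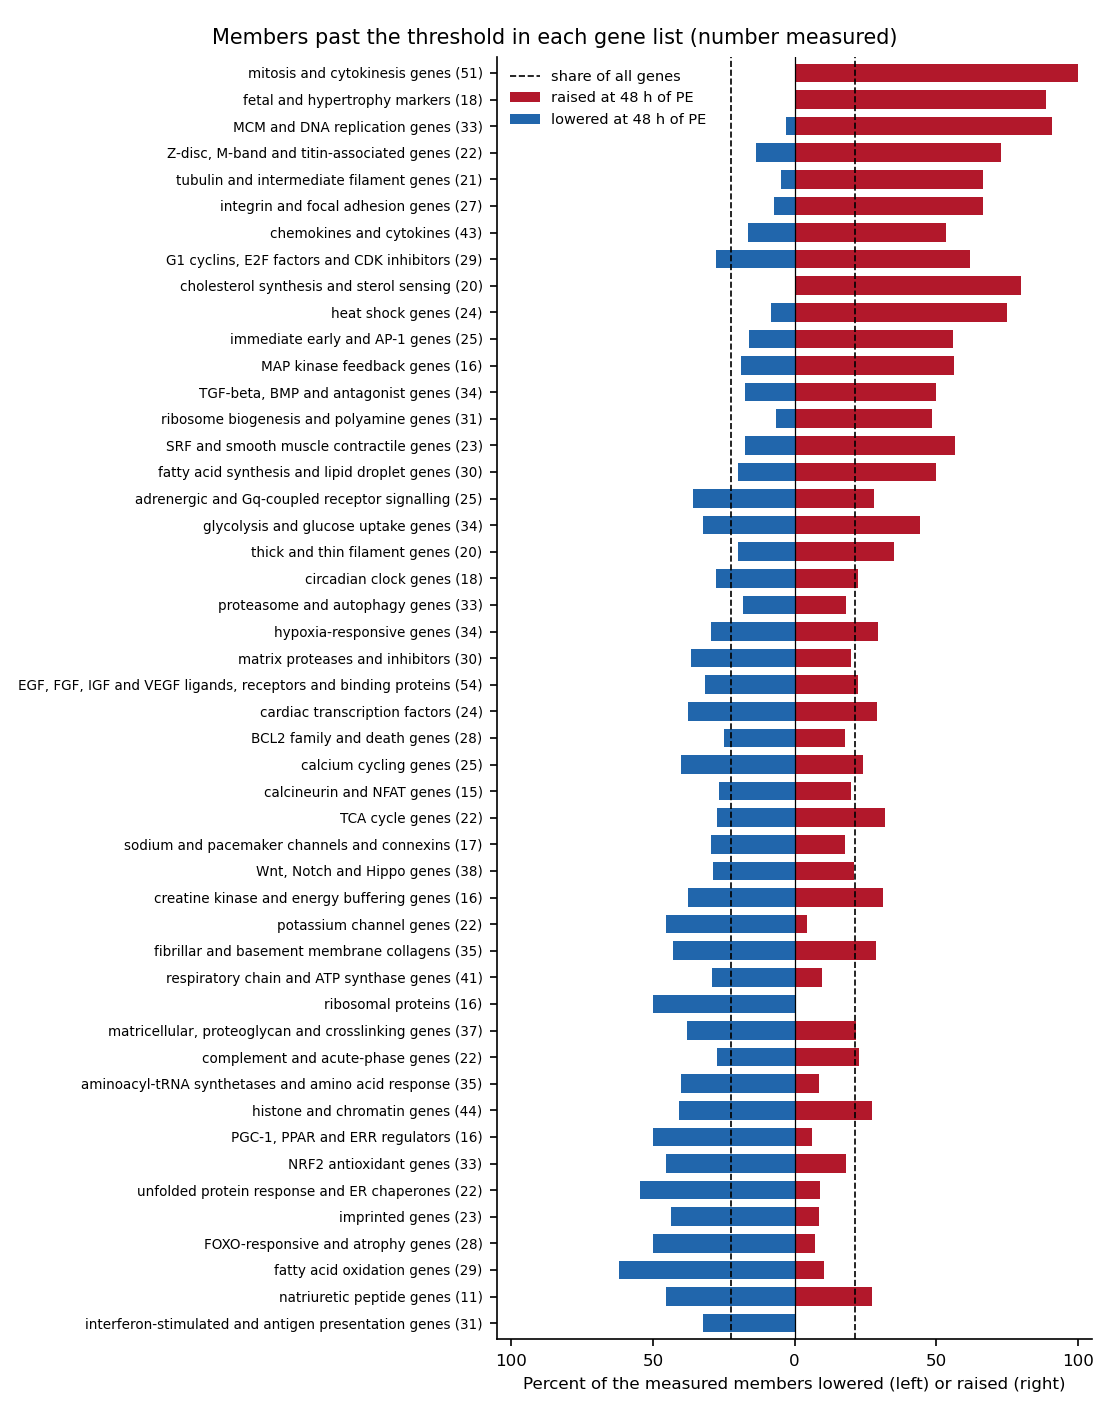
Bars give the percent of measured members of 48 gene lists that were raised (red, right) or lowered (blue, left) at 48 h of PE against DMSO 90 min, with lists sorted by median log2 fold change and the number measured in brackets; dashed lines mark the shares over all genes, 21.4% raised and 22.6% lowered. The mitosis list reaches 51 of 51 raised, and the fatty acid oxidation list has 18 of 29 lowered.

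Several of the 25 most raised and 25 most lowered genes fell outside the lists. Hsf2bp, which binds heat shock factor 2, stood at 7.94, 7.60 and 7.81 with PE for 48 h and at 5.65, 5.19 and 5.61 in DMSO (log2 fold change 2.30 ± 0.13), and Ildr2, a membrane protein of the immunoglobulin family, at 10.36, 10.50 and 10.33 with PE and 8.40, 8.28 and 8.19 in DMSO (2.11 ± 0.069). Otud1, a deubiquitinase, rose by 1.87 ± 0.051 and Olr1, the receptor for oxidised LDL, by 1.81 ± 0.12. Nptx1, neuronal pentraxin 1, rose by 1.75 ± 0.063 and Akip1, which binds protein kinase A, by 1.66 ± 0.036. Other probe sets of Akip1 gave 1.86, 1.79, 1.76 and 0.66 past the threshold and 0.18, 0.15 and 0.11 short of it. Those at 0.66, 0.15 and 0.11 were dim in both groups. Phf24 (2.02 ± 0.072), Adamts19 (1.77 ± 0.084), Fcer2 (1.76 ± 0.12), Serinc2 (1.72 ± 0.050), Yipf7 (1.66 ± 0.062) and the uncharacterised RGD1559545 (1.92 ± 0.11) complete the risers. Of these, Hsf2bp, Otud1 and Nptx1 did not pass the test between 6 h and 48 h, Olr1 was lower at 48 h and the other 8 were higher at 48 h. Fallers outside the lists were Smoc2, a matrix calcium-binding protein (-1.92 ± 0.092), Atp6ap1l (-1.88 ± 0.098), Doc2g (-1.87 ± 0.070), Sec16b, of exit sites of the endoplasmic reticulum (-1.49 ± 0.14), Slc4a1ap (-1.48 ± 0.062), Phactr1, which binds actin and protein phosphatase 1 (-1.48 ± 0.11), Flrt3 (-1.47 ± 0.095), Smtnl2 (-1.46 ± 0.095), Dgkb, a diacylglycerol kinase (-1.44 ± 0.062), and Tox (-1.39 ± 0.11). Ptprk, a receptor tyrosine phosphatase, fell by 1.55 on its brightest probe set. Its other 2 probe sets were dim in both groups and gave 0.28, past the threshold, and -0.21, short of it. A second probe set of Fcer2, dim in both groups, gave -0.0029 and did not pass the test. Other probe sets of Smoc2, also dim in both groups, gave -0.28 past the threshold and -0.043 short of it.

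Markers of the cell types that such cultures can hold moved in different directions. The cardiomyocyte markers Tnnt2, Tnni3, Myh6, Mybpc3, Ryr2, Pln and Nppa were all far above the limit for dim genes (log2 6.23). Most genes pass that limit, so it cannot tell one cell type from another. Of these 7 cardiomyocyte markers 1 was raised (Nppa) and 4 were lowered on their brightest probe sets, by 0.12 (Tnni3) to 0.32 (Ryr2). Tnni3 lost its call without PE 48 h array 3 or DMSO array 3, Ryr2 lost it with the mean of its probe sets, and the second probe set of Myh6 fell by 1.05. Their summed log2 level was 95.97 to 96.11 on the PE 48 h arrays and 96.15 to 96.36 on the DMSO 90 min arrays. Of 10 fibroblast markers 6 were lowered and 1, Thy1, was raised. Their summed level was 101.9 to 102.4 with PE for 48 h and 103.5 to 103.9 in DMSO, and none was dim in both groups. Thy1 stood at 7.99, 7.96 and 8.17 with PE and at 6.56, 6.65 and 6.54 in DMSO (1.45 ± 0.083), against falls of 0.88 for Dpt, 0.73 for Pdgfra and 0.41 for Col1a1. Of 9 smooth muscle and pericyte markers 6 were raised and 1, Tagln, was lowered (none without PE 48 h array 1 or 2 or DMSO array 3), and their summed level was 87.29 to 87.45 with PE and 82.58 to 83.18 in DMSO. Cspg4 rose 2.63-fold and Acta2 1.29-fold beside Cnn1 and Des. Of 9 macrophage and leukocyte markers 7 were lowered (4 with dim genes left out) and none was raised, with a summed level of 54.16 to 54.82 with PE and 57.27 to 58.10 in DMSO, and 5 of the 9 were dim in both groups. Of 7 endothelial markers 3 were lowered and 1 was raised. The part of these shifts in the results for mitotic, matrix, interferon and chemokine genes was not tested. No marker of dividing cells of a single type was in the lists, and the mitotic genes were not assigned to a cell type.

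**Figure D5:**
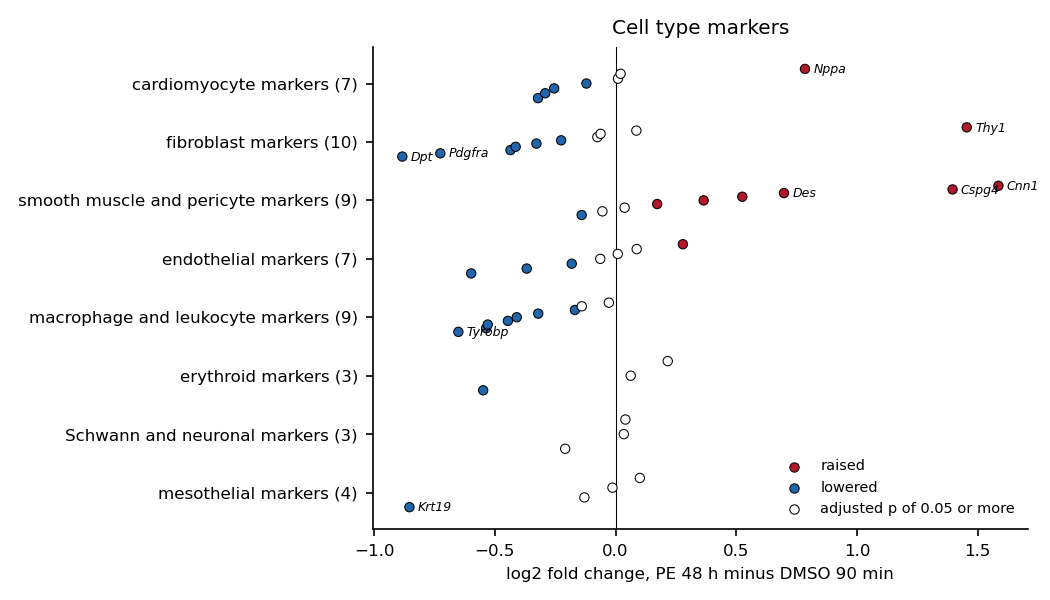
Each point is 1 marker gene, placed by its log2 fold change, PE 48 h minus DMSO 90 min (x axis), in 8 cell type lists (number measured in brackets); red points were raised, blue were lowered and white did not pass the test. Macrophage and leukocyte markers lie below 0, and Thy1 stands apart from the other fibroblast markers.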

How the data were processed

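RNA was measured on 14 Affymetrix rat expression arrays in 5 groups. The deposited table holds log2 expression values, one per probe set and array, with nearly the same distribution on every array. The submitters' processing notes name limma, and the authors' background correction, normalization and summarisation are not given in the sources used here. An array has no read depth, so the number of arrays limits the precision (median SE 0.060).

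Of 20223 probe sets, 18510 carried 1 gene symbol, 305 several and 1402 none, and 6 were controls; current symbols were found by gene identifier for 18461 and by accession for 1, and 48 kept the platform's symbol. Each of 13184 genes took its brightest probe set (3797 genes had several). limma 3.58.1 (R 4.3.3) was fitted to all 14 arrays with 5 group means and no covariate (9 residual degrees of freedom), and p-values were adjusted by Benjamini-Hochberg over 13184 genes at a threshold of 0.05. Dim means below the 30th percentile of gene means (log2 6.23). Data simulated for this comparison over 13184 genes gave 82% of 1.25-fold, 92% of 1.5-fold and 100% of 2-fold changes back, and 6.03% of the calls were false. The simulation changed far fewer genes than were called here and used independent normal noise, so these rates need not hold for the real arrays. Tables and figures were made with pandas 2.3.3 and matplotlib 3.10.9 on Python 3.11.15.

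The text names the 25 genes with the largest change each way whose arrays do not overlap, up to 5 members of a list with the smallest adjusted p in the direction of most calls and up to 2 in the other, a fixed panel, and other probe sets of those genes. The 48 pathway and 8 marker lists (1377 of 1552 entries measured, 3 to 54 a list) were chosen with earlier results of these data known, as were the comparison and the panel. The JQ1 groups entered the fit only. Alternatives were a replicate block, the 6 arrays alone, repeated quantile normalization, median centring, the mean of a gene's probe sets, a filter on dim genes, an intensity trend and leaving out each array.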

Additional observations from a re-analysis of the deposited data

Results flagged for a closer look

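Hamp, which encodes hepcidin, moved in opposite directions at the PE times. It averaged 8.43 in DMSO at 90 min, 9.57 at 6 h of PE and 6.82 at 48 h of PE. The difference between PE 48 h and PE 6 h was -2.753 on the log2 scale (limma, adjusted p = 7.16e-10), opposite in sign to that between PE 6 h and DMSO 90 min.

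Probe sets without a gene symbol were outside the comparison of genes. Of 1402 such probe sets, 208 were raised and 264 were lowered at 48 h of PE (33.7% called), 10 and 7 of them by at least 2-fold. The furthest up were 1376799_a_at (1.969) and 1387247_at (1.948) and the furthest down were 1386212_at (-1.782) and 1383641_at (-1.464), as log2 fold changes, PE 48 h minus DMSO 90 min.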

How the results depend on the processing

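The total of called genes, 5809, lay between 5080 and 6002 over 13 alternative settings, and between 5080 and 5287 when 1 array was left out; the counts raised, lowered and past 2-fold over all genes moved by less than 1.5 times. Of the 112 counts raised or lowered per list, 28 moved by more than that under some setting, 17 of them when 1 array was left out. Of 364 named genes called, 334 kept their call under all 13 settings, 16 were left out by the filter on dim genes and kept it under the other 12, and 14 lost it under at least one: Dio3, Edem1, Esam, Gnl3, Igf2, Nppc, Parva, Ppp1r15a, Psma1, Rrn3, Ryr2, Tagln, Tnnc1 and Tnni3. The Adra1a log2 fold change, not called and dim in both groups, changed sign under repeated quantile normalization (-0.0308). With 1 array left out it ran from -0.02035 to 0.0453, and it was -0.01221 without the PE 48 h array of replicate 3; the cause was not tested. With the replicate number as a replicate block 5606 genes were called, 2728 raised and 2878 lowered, and 185 and 88 of them by at least 2-fold. Arrays that share a number did not deviate together (r = -0.037, -0.158 and -0.036), so the numbers were not taken to pair the samples. PE, time in culture and time in DMSO cannot be told apart, and genes that are dim in either group have uncertain folds.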
